A study of Drosophila melanogaster with 4 samples.

Results

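S2 cells are a Drosophila line derived from embryos, with features of blood cells. The study placed them either in Schneider's medium, their growth medium with serum, or in Krebs Ringer Bicarbonate (KRB), a buffered salt solution that lacks amino acids and serum and holds more sodium. After 4 h, total RNA was freed of ribosomal RNA and sequenced, with 2 biological replicates of each medium and so 4 libraries. The study names the same line for both groups and no difference but the medium, and the media differ in several components at once. The sample labels read FED for Schneider's medium and STARVATION for KRB. The genes described here were expressed in Schneider's medium and far higher in KRB. The deposited table lists 2049 genes, a selection made by the authors for change between the media, and 37 of them had at least 10 reads in each Schneider's library and at least 4 times as many raw reads in the KRB libraries together as in the Schneider's libraries together. Before names were considered, 50 listed genes met these bounds. Of these, 9 were left out as long non-coding RNAs, microRNAs, glutathione S-transferases or cytochrome P450 genes, and 4 as single genes (Tret1-1, nkd, comm2 and CG18446).

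The choice of the 37 genes rests on the read counts of these same libraries. Their rise in KRB is therefore a description of how they were picked, and no test of it is given. Just inside the bound were hwt, scyl and CG5404, with raw read ratios of 4.11, 4.12 and 4.12, and just outside it were CG5321, CG2065 and CG8180, with 3.96, 3.95 and 3.92. The counts of CG8180 and CG5404 are small, with 10 and 14 and 12 and 29 reads in Schneider's medium, so that a few reads decide on which side of the bound such genes lie.

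Reads on the listed genes came to 1108029 and 2414465 in Schneider's medium against 1957713 and 2801713 in KRB, and the full depth of the libraries is unknown because the table is a selection. Counts were therefore scaled with edgeR's TMM factors and are given as normalized counts, that is, reads divided by the effective size of a library relative to the geometric mean of the 4. Under other scalings the median shift of all tested genes was -0.97 to 0.74 on the log2 scale, and every fold change is relative to the other listed RNAs. Of the 14 S2 and plasmatocyte (phagocytic blood cell) markers looked for, 3 were listed, eater, Ppn and Sr-CI. Their summed normalized counts were 2468 and 1405 in Schneider's medium against 943 and 547 in KRB. Of 9 markers of lamellocytes and crystal cells 2 were listed, peb and PPO1, with sums of 6.11 and 9.52 in Schneider's medium against 169 and 222 in KRB. Nearly all of the KRB sums was peb alone, with 162 and 216. PPO1 had 1 and 1 reads in Schneider's medium against 5 and 6 in KRB and was not tested. Of 12 markers of neurons, muscle, fat body and gut only Mlc2 was listed, with 24.4 and 47.6 in Schneider's medium against 14.9 and 20.4 in KRB. The other markers are not analysed here, and the part of these changes in the results below was not tested. In bulk RNA, fewer cells of a type and less RNA per cell cannot be told apart.

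Cells that lose nutrients or meet a change in salt switch on stress pathways that are well known in flies. Jun kinase (JNK) signalling acts through the transcription factors Fos and Jun, JAK/STAT signalling is started by secreted cytokines of the Unpaired family, and the growth kinase complex TORC1 is held back by several inhibitors when conditions are poor. Epidermal growth factor (EGF) receptor and Notch signalling are further pathways in which the genes below have known places. Of the 37 genes, 7 act in signalling, 5 encode transporters or channels, 5 encode enzymes, and 7 encode cytoskeletal, polarity or other named proteins. For the remaining 13 no role is given here.

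All 37 genes passed edgeR's filter on low counts, which the rule itself favours. With an adjusted p under 0.05 in the quasi-likelihood test, 37 of 37 were higher in KRB, beside 42.3% of all 1756 tested genes and 34.7% of the 1448 tested genes that also had at least 10 reads in each Schneider's library. The lower KRB value exceeded the higher Schneider's value for 37 of 37, beside 42.5% of the tested genes. Nothing is read from these counts, or from the separation of single genes between media given below, since the rule used this contrast. The log2 fold change ran from 2.39 for hwt to 7.22 for CG7142, with a median of 2.86, against 1.73 over the 742 genes called higher and -0.92 over all tested genes. In fold terms the smallest rise was 5.14-fold and the median 7.16-fold, and 10 genes rose at least 10-fold. Mean normalized counts spanned 9.08 to 1546 in Schneider's medium, with a median of 44.9, and 68.4 to 9169 in KRB, with a median of 480.

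**Figure D1:**
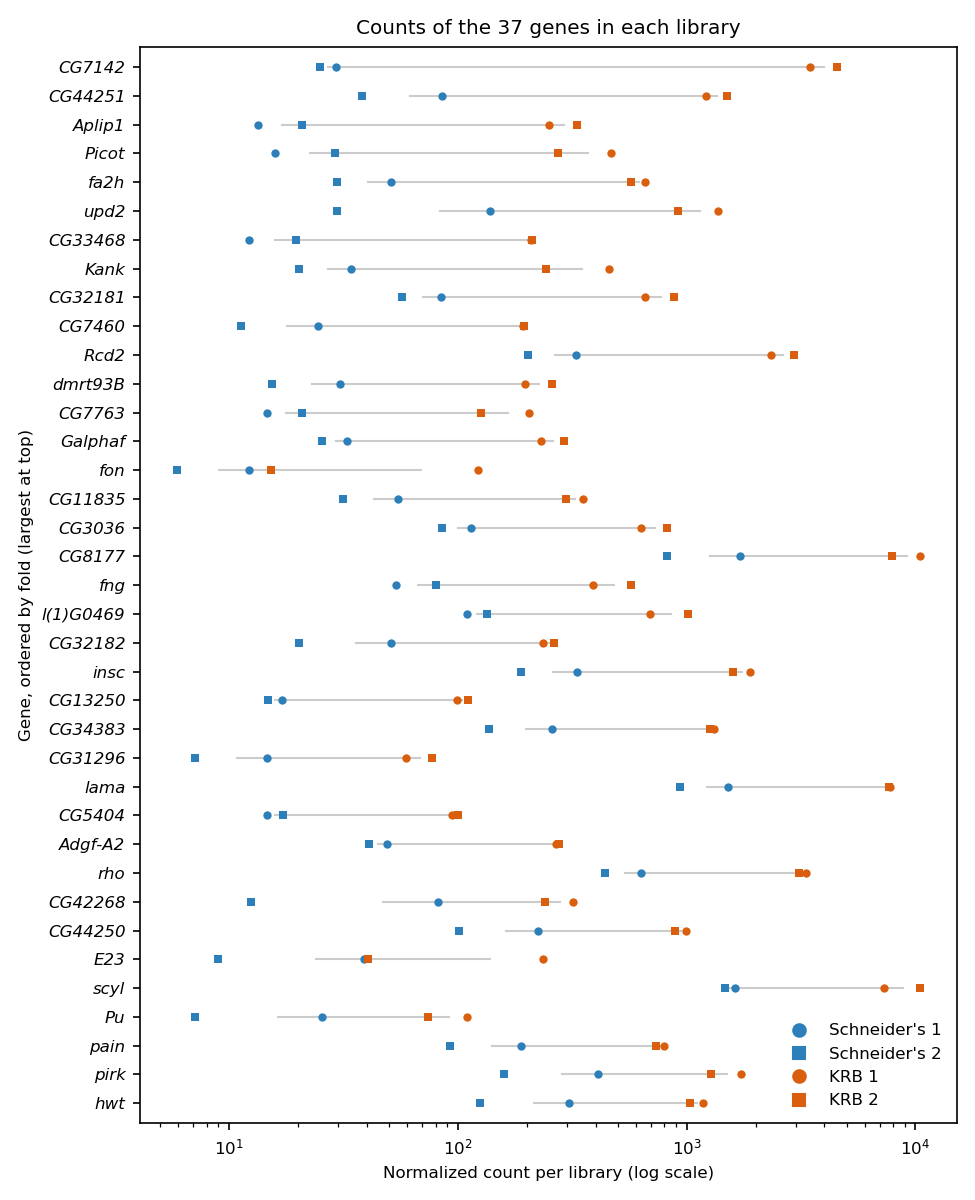
Normalized count (log axis) of each of the 37 genes in each of the 4 libraries, blue for Schneider's medium and orange for KRB, circles for replicate 1 and squares for replicate 2, with a grey line between the 2 means. CG7142 at the top stands apart with a 147-fold rise, and the KRB replicates of fon and E23 lie far from each other.

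Per kb of exon, which allows levels to be compared between genes, the 37 genes started low and ended high. Their median normalized count per kb was 24.8 in Schneider's medium, against 132 over the 1443 annotated listed genes that also had at least 10 reads in each Schneider's library. In KRB it was 231, against 91.1 for the same genes. The bound on the read ratio builds in part of this contrast and of the rise in read share below. Of all tested genes, 53.6% were called lower in KRB. Of the listed reads, the 37 genes together held 0.514% ± 0.187 (SD, n = 2) in the Schneider's libraries. In the KRB libraries they held 1.92% ± 0.0773 (SD, n = 2). CG8177, scyl and lama made up 48.8% of the normalized counts of the 37 genes in KRB.

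**Figure D2:**
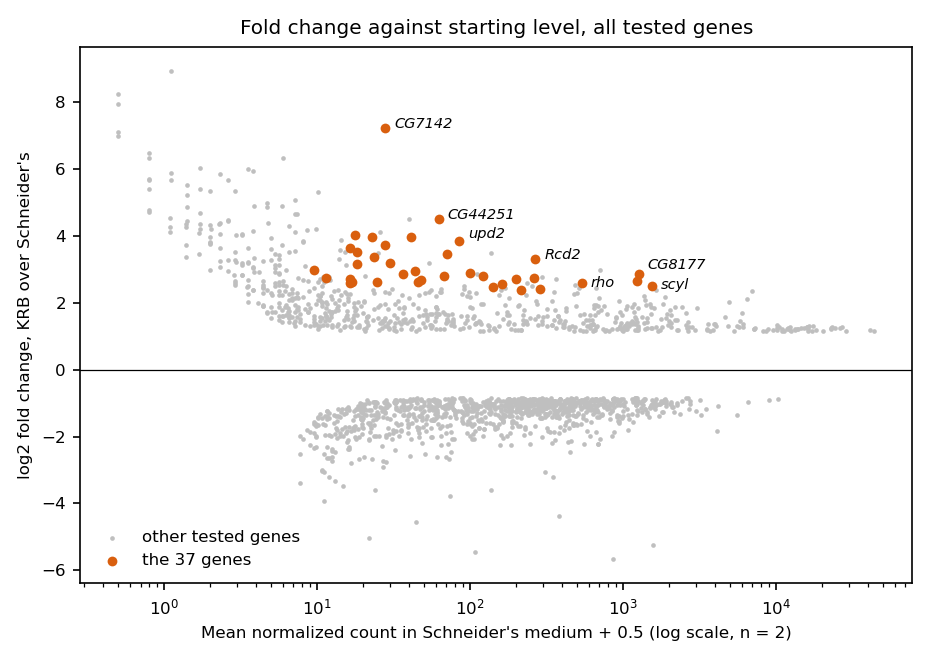
Log2 ratio of KRB to Schneider's medium against the mean normalized count in Schneider's medium plus 0.5 (log axis, n = 2) for all tested genes, with the 37 genes in orange and the other tested genes in grey. The band without grey points around 0 reflects the authors' selection, and CG7142 is the highest orange point at 7.22.

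Among the signalling genes, the cytokine gene upd2 and the scaffold gene Aplip1 had the largest rises. upd2 encodes a secreted ligand of the JAK/STAT receptor Domeless. It lies on X from 18240654 to 18243284 (BDGP6, minus strand) and overlaps no other annotated gene. Its normalized counts were 138 and 29.7 in Schneider's medium against 1375 and 921 in KRB, a log2 fold change of 3.85 ± 0.67, where ± gives the standard error of the fit here and at each log2 fold change below. The KRB libraries were both far above the Schneider's libraries, but the 2 Schneider's libraries differed from each other more than 4-fold, and the log2 fold change was 2.90 to 5.10 with single libraries left out. upd3, a further cytokine gene of the family, chosen after its values were seen, had 110 and 94 reads in Schneider's medium against 343 and 382 in KRB, a smaller rise (2.20 ± 0.41).

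Aplip1 encodes a scaffold of the JNK pathway that also binds the motor protein kinesin. It lies on 3L from 1196317 to 1199339. It had 13.4 and 20.8 normalized counts in Schneider's medium against 250 and 332 in KRB, with a log2 fold change of 4.03 ± 0.31. Unlike upd2 it was similar in the replicates of each medium. Of 21 genes drawn up for the AP-1 and JNK group, 9 are listed and 9 of 9 were higher in KRB in edgeR's test, with a median log2 fold change of 1.88, beside 42.3% of all tested genes. The 3 most counted were kay, the Fos gene (log2 fold change 1.24 ± 0.26), puc, a phosphatase that restrains JNK (1.46 ± 0.15), and Mmp1, a secreted matrix protease (1.88 ± 0.42). They rose by less than upd2, which is a member of this group. The listed genes were selected by the authors on these libraries, so the count is not independent evidence of a direction, here and for the groups below.

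scyl, a relative of the mammalian TORC1 inhibitor REDD1, had the highest level of the 37 genes in Schneider's medium. Its normalized counts were 1625 and 1467 in Schneider's medium against 7274 and 10437 in KRB. The log2 fold change was 2.52 ± 0.22, and this gene lies on 3L from 11252307 to 11256172 without an overlapping gene. Both media were well separated, and the Schneider's replicates were close to each other. In the group of 25 genes for FoxO and TORC1 signalling 3 are listed. Thor, a translation repressor held off by TORC1, had 7 and 36 reads in Schneider's medium against 51 and 27 in KRB (log2 fold change 1.57 ± 0.60). Its raw reads thus overlapped between media, but they are not scaled for depth. The relative effective size was 1.68 for Schneider's replicate 2 and 0.983 for KRB replicate 2. Mean normalized counts of Thor were 15.0 ± 9.10 (SD, n = 2) in Schneider's medium against 48.2 ± 29.4 (SD, n = 2) in KRB. Ilp6, an insulin-like peptide gene, fell by 1.00 on the log2 scale (± 0.16).

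rho encodes Rhomboid, the membrane protease that releases the EGF receptor ligand Spitz. Its normalized counts of 633 and 441 in Schneider's medium became 3331 and 3109 in KRB, a log2 fold change of 2.59 ± 0.22. The rise was larger than the difference within either medium. rho lies on 3L from 1463811 to 1468944 inside Ptp61F on the other strand, with no shared exon position. Of the 18 growth factor and immediate early genes looked for, 5 are listed, of which 4 were higher and 1 lower in edgeR's test. ec, an ubiquitin protease gene, had a log2 fold change of 1.65 ± 0.28, and vn, a further EGF receptor ligand, had 2.26 ± 0.21. aos, a secreted inhibitor of that receptor, was the one that fell, by 1.06 on the log2 scale (± 0.25).

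fng, Galphaf and pirk complete the signalling genes. fng encodes a Golgi glycosyltransferase that modifies Notch, and it had 53.7 and 80.3 normalized counts in Schneider's medium against 391 and 569 in KRB. Galphaf, a G protein alpha subunit, had 33.0 and 25.6 in Schneider's medium against 230 and 292 in KRB. Their log2 fold changes were 2.82 ± 0.30 and 3.18 ± 0.27. For both, the lower KRB library was several times above the higher Schneider's library. Galphaf shares 9.26% of its exon positions with CR46033 on the other strand, which was also higher in KRB (log2 fold change 3.12 ± 0.52). pirk, a feedback inhibitor of the Imd immune pathway, had 412 and 159 normalized counts in Schneider's medium against 1735 and 1282 in KRB, with a log2 fold change of 2.42 ± 0.44. Its Schneider's libraries were more than 2-fold apart, which is reflected in the larger error. Of 37 genes of the Toll, Imd and JAK/STAT group 7 are listed, 6 higher and 1 lower, with a median log2 fold change of 1.46. The most counted were the JAK/STAT feedback inhibitor Socs36E (1.34 ± 0.24), the receptor gene Tl (1.20 ± 0.20) and Dif, an NF-kappaB factor (1.65 ± 0.17). The antimicrobial peptide gene CecC was the one that was lower, with 63 and 87 reads in Schneider's medium against 16 and 11 in KRB.

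**Figure D3:**
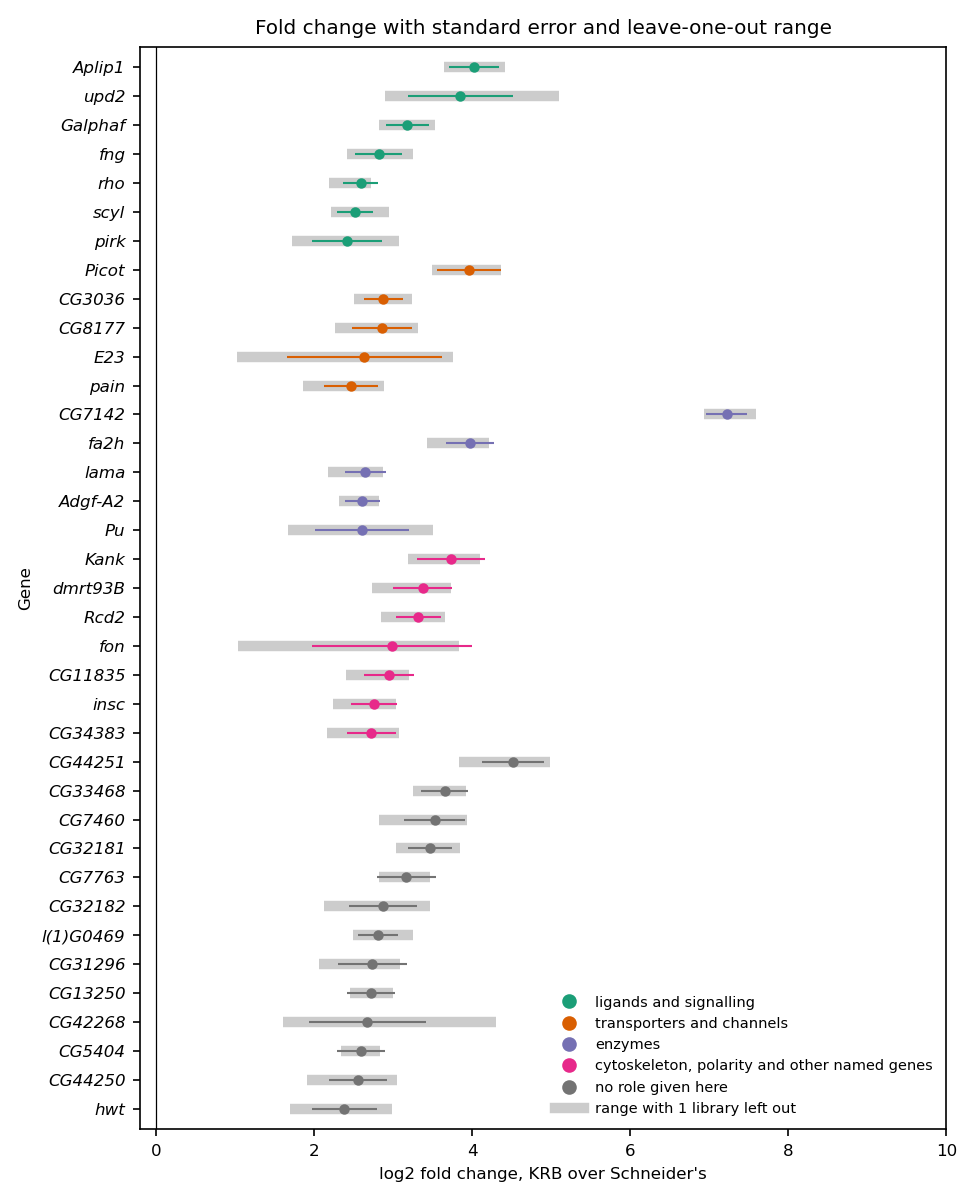
Log2 fold change of each of the 37 genes (points, with the standard error as bars) grouped by role, with a grey band for the range over fits that each lack 1 library. These bands are widest for fon, E23, CG42268 and upd2, and no band reaches 0.

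Of the 5 transporter and channel genes, CG8177 was the most abundant and Picot had the largest rise. CG8177 is annotated as Ae2, an anion exchanger of the family that trades chloride for bicarbonate, and lies on 3L from 9763544 to 9786466 with no overlapping gene. Its normalized counts were 1712 and 822 in Schneider's medium against 10450 and 7888 in KRB, a log2 fold change of 2.86 ± 0.38. In both media replicate 1 was above replicate 2, and the 2 media did not overlap. In KRB it had the highest normalized count of the 37 genes.

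Picot is named for its likeness to phosphate cotransporters, and CG3036 is a predicted transporter of the major facilitator family. Picot had 15.9 and 29.1 normalized counts in Schneider's medium against 465 and 275 in KRB, which gave a log2 fold change of 3.96 ± 0.40. CG3036 had 115 and 85.0 in Schneider's medium against 635 and 821 in KRB, with 2.88 ± 0.24. Both were low to moderate in Schneider's medium and separated from it in each KRB library. pain, a channel of the transient receptor potential family known from nociception, had 189 and 92.8 normalized counts in Schneider's medium against 797 and 737 in KRB, with a log2 fold change of 2.47 ± 0.34. Of 36 other ion pumps and carriers drawn up as a group 3 are listed, 2 higher and 1 lower. The potassium channel gene Irk1 (1.19 ± 0.20) and the cotransporter gene Ncc69 (1.32 ± 0.15) rose, and the sodium-proton exchanger gene Nhe2 fell by 0.98 on the log2 scale (± 0.32).

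E23, an ABC transporter gene known as an early target of the steroid hormone ecdysone, was one of the least certain of the 37. It had 39.1 and 8.92 normalized counts in Schneider's medium against 237 and 40.7 in KRB. KRB replicate 2 was thus level with Schneider's replicate 1, and the log2 fold change of 2.64 ± 0.98 fell to 1.03 without KRB replicate 1, where its call was lost. Without Schneider's replicate 2 it was 1.64, also not called, and the call was lost too with total counts, with no filter on low counts and with a filter on a mean count of 10. Other genes of the ecdysone and nuclear receptor group were steadier. Of 27, 9 are listed, with 8 higher and 1 lower and a median log2 fold change of 1.67. The most counted of those that rose were Eip75B (1.83 ± 0.15), br (1.72 ± 0.16) and Kr-h1 (1.67 ± 0.17), which encode transcription factors of the hormone response.

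CG7142, a predicted trypsin-like serine protease gene, had the largest rise of the enzymes and of all 37 genes. Its raw reads were 24 and 42 in Schneider's medium against 2560 and 4462 in KRB, or 29.3 and 25.0 against 3464 and 4541 normalized counts. The replicates of each medium were close to each other, and the lower KRB library held 118 times the count of the higher Schneider's library. The gene is a single exon of 1342 nt on 3R, from 18278181 to 18279522, within eIF1A on the other strand, which is not among the listed genes. Per kb of exon its level went from 20.2 to 2982 normalized counts, above those of scyl (2835) and lama (1898) in KRB.

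fa2h encodes fatty acid 2-hydroxylase, which modifies the fatty acids of sphingolipids. It had 51.3 and 29.7 normalized counts in Schneider's medium against 659 and 574 in KRB, a log2 fold change of 3.97 ± 0.30. The KRB replicates were close. It lies on 2R from 7446189 to 7451553, and 25.9% of its exon positions are shared with CG11125 on the other strand, whose reads could be counted on it if strand was not used. lama, a gene of the phospholipase B type, had 1517 and 940 normalized counts in Schneider's medium against 7707 and 7650 in KRB, with a log2 fold change of 2.65 ± 0.26. The KRB replicates of lama were nearly equal, but 87.6% of its exon positions are also those of CG46456 on the same strand, so the 2 genes cannot be told apart in these counts.

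Pu encodes GTP cyclohydrolase, the entry enzyme of pteridine synthesis. It had 25.6 and 7.14 normalized counts in Schneider's medium against 110 and 74.3 in KRB, with a log2 fold change of 2.61 ± 0.59. The Schneider's counts rest on 21 and 12 reads, and without Schneider's replicate 2 the value was 1.67. The last of the enzyme genes, Adgf-A2, belongs to the adenosine deaminase growth factors and is described with its locus below.

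Kank, a gene for a protein with a KN motif and ankyrin repeats, led the group of cytoskeletal, polarity and other named genes. It had 34.2 and 20.2 normalized counts in Schneider's medium against 457 and 242 in KRB, a log2 fold change of 3.73 ± 0.43. The lower KRB library held 7.08 times the count of the higher Schneider's library. Kank shares 17.9% of its exon positions with Cyp317a1 on the other strand, which is listed too and had 13 and 19 reads in Schneider's medium against 150 and 112 in KRB. insc encodes an adaptor that orients the spindle in dividing neural stem cells. It shares 9.24% of its exon positions with sktl on the same strand, which is not among the listed genes. Reads there cannot be assigned to either gene. The normalized counts of insc were 331 and 189 in Schneider's medium against 1889 and 1597 in KRB, with a log2 fold change of 2.76 ± 0.29. CG34383, annotated as kramer and related to human PLEKHA4, was similar, with 259 and 137 in Schneider's medium against 1322 and 1262 in KRB. For both genes Schneider's replicate 1 was the higher one.

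Rcd2, named from a screen for centrosome defects, was among the more abundant genes, with 328 and 202 normalized counts in Schneider's medium against 2330 and 2931 in KRB. Its log2 fold change was 3.32 ± 0.28. dmrt93B, a transcription factor gene of the doublesex-related family, had 30.5 and 15.5 in Schneider's medium against 198 and 257 in KRB (3.38 ± 0.38). CG11835, now named uncNacbeta, had 55.0 and 31.5 in Schneider's medium against 353 and 296 in KRB (2.95 ± 0.31). These 3 genes were separated between media by more than the spread of their replicates. fon, which takes part in the clotting of insect blood, was not steady: it had 10 and 10 reads in Schneider's medium against 91 and 15 in KRB. Its log2 fold change of 2.99 ± 1.01 fell to 1.03 without KRB replicate 1, and the call was lost there and without Schneider's replicate 2.

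A further 13 groups of stress and pathway genes held none of the 37. This depends in part on the names left out at the start. The trehalose transporter gene Tret1-1, the Wingless pathway gene nkd and several glutathione S-transferase genes met the count bounds. They could not be among the 37 and are not counted in these groups. In the ATF4 group 5 of 24 genes are listed, with 4 higher and 1 lower, and in the oxidative response group other than glutathione S-transferases 6 of 30, with 3 higher and 3 lower. Of sugar and monocarboxylate transporters 7 of 27 are listed, and 5 of the 5 tested were higher. Of genes drawn up as targets of Notch, Hippo, Wingless and TGF-beta signalling 5 of 24 are listed, with 3 higher and 2 lower. fng, one of the 37, modifies Notch itself and is not in this group of targets. None of 25 autophagy genes is listed, and the other 8 groups have 1 to 3 listed genes each.

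Among the 13 genes for which no role is given, CG44251 rose most and hwt least. CG44251 had 85.5 and 38.1 normalized counts in Schneider's medium against 1214 and 1497 in KRB, a log2 fold change of 4.51 ± 0.39. CG44250 had 223 and 102 in Schneider's medium against 990 and 890 in KRB, with 2.56 ± 0.37. Both genes lie on the minus strand of 2R and begin, read along that strand, at the same position, 12952293. CG44251 runs down to 12948348 and CG44250 to 12950404, and they share 121 nt of exon. CG44250 was the more counted of the pair in Schneider's medium and CG44251 in KRB. Reads in the shared stretch cannot be assigned to either gene.

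CG33468 (12.2 and 19.6 normalized counts in Schneider's medium, 208 and 211 in KRB) and CG7460 (24.4 and 11.3, against 193 and 194) were nearly equal in the KRB replicates. CG7763 had 14.7 and 20.8 in Schneider's medium against 204 and 126 in KRB. The log2 fold changes of these genes were 3.65 ± 0.30, 3.53 ± 0.39 and 3.17 ± 0.37. CG31296, CG5404 and l(1)G0469 rose with log2 fold changes of 2.74, 2.59 and 2.80. hwt, the gene nearest to the bound, had 307 and 125 normalized counts in Schneider's medium against 1180 and 1039 in KRB, a log2 fold change of 2.39 ± 0.41. CG42268 depended on the Schneider's libraries, with 81.8 and 12.5 normalized counts there and 318 and 240 in KRB. Its log2 fold change of 2.68 ± 0.74 became 4.31 without Schneider's replicate 1 and 1.61 without Schneider's replicate 2. With either of the KRB libraries left out its call was lost.

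Replicates within a medium differed more for the 37 genes than for listed genes in general, most of all in Schneider's medium. The median size of the log2 ratio between replicates was 0.79 in Schneider's medium, against 0.26 over the 1451 listed genes with at least 10 reads in each Schneider's library, and 0.37 in KRB, against 0.23. The 37 genes also started at a lower level per kb of exon than the genes they are compared with. The part of low counts in the wider spread was not tested. Of the 37, 14 (37.8%) differed more than 2-fold between the 2 Schneider's libraries, against 7.24% of those 1451 genes. Between the KRB libraries 2 of the 37 (5.41%), fon and E23, differed more than 2-fold, against 5.79%. The difference had a direction: Schneider's replicate 1 was above replicate 2 for 30 of the 37 genes (81.1%), with a median log2 ratio of replicate 2 over replicate 1 of -0.78. For the 465 other genes called higher in KRB with as many reads, replicate 1 was above replicate 2 for 293 (median log2 ratio -0.17), and for the 891 genes called lower it was so for 281 (median log2 ratio 0.13). Schneider's replicate 1 thus lay nearer to KRB than replicate 2 for most genes of either direction. The bound on raw reads weighs the deeper Schneider's replicate 2 more, and its part in this pattern was not tested. The median log2 fold change of the 37 genes was 2.45 without Schneider's replicate 2 and 3.20 without Schneider's replicate 1.

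**Figure D4:**
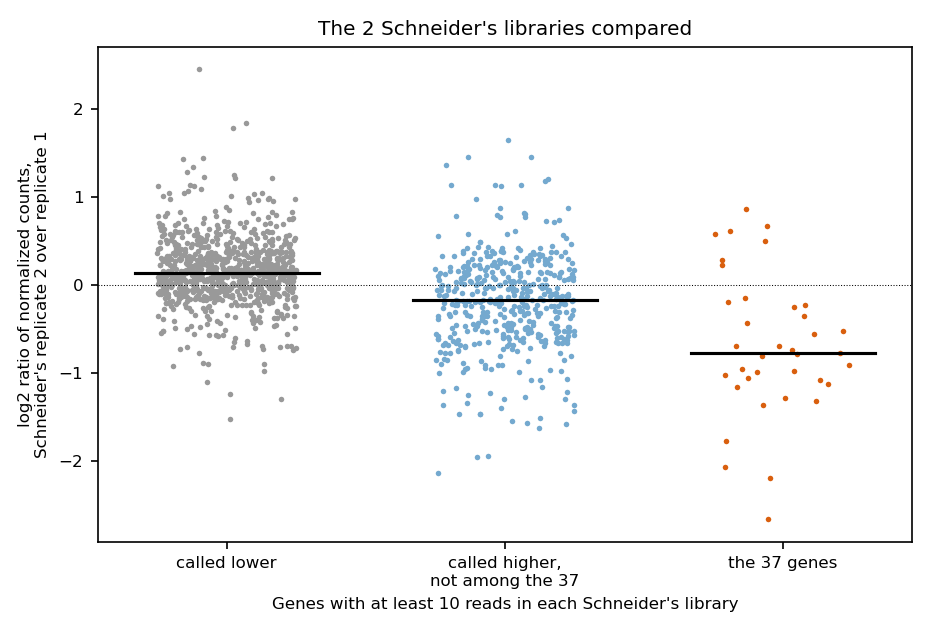
Log2 ratio of the normalized counts of Schneider's replicate 2 over replicate 1 for genes called lower in KRB, other genes called higher and the 37 genes, each point a gene with at least 10 reads in each Schneider's library and each bar a median. The medians are 0.13, -0.17 and -0.78, and 30 of the 37 genes lie below 0.

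The 37 genes were spread over all large chromosome arms, with 4 on 2L, 11 on 2R, 14 on 3L, 5 on 3R and 3 on X. The share on 3L was 37.8%, against 20.5% of the 2036 listed genes found in the annotation. Several of the genes on 3L are nested or close neighbours, as given below, and so are not separate places on the arm. They were longer than the listed genes as a whole, with a median span of 5134 nt against 1944.5 nt. The median exon length was 2276 nt against 1591.5 nt. For listed genes with at least 10 reads in each Schneider's library these medians were 2099 nt and 1691 nt. The listed genes include short RNAs, down to 34 nt, of kinds left out of the 37 by name, which builds in part of the difference. Another annotated gene overlapped 24 of the 37 (64.9%), against 56.5% of the listed genes and 60.5% of those with at least 10 reads in each Schneider's library. Exon positions were shared with another gene by 12 of the 37 (32.4%), against 37.3% and 44.4%. These shares are descriptions and were not tested.

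Of the 37 genes, 9 lay within 10 kb of another of them, in 6 pairs. At 1 locus on 3L, 3 of the 37 are nested in Adgf-A, an adenosine deaminase growth factor gene. Adgf-A2 (17754936 to 17764158) shares the strand of Adgf-A and 5.08% of its own exon positions with it. CG32182 (17758112 to 17759553) and CG32181 (17759697 to 17762904) lie on the other strand within both, 143 nt apart and without a shared exon position. In KRB Adgf-A2 rose from 48.8 and 41.0 normalized counts to 268 and 278, CG32182 from 51.3 and 20.2 to 237 and 263, and CG32181 from 84.3 and 57.1 to 659 and 881. Their log2 fold changes were 2.61 ± 0.22, 2.88 ± 0.43 and 3.47 ± 0.28, beside 1.51 ± 0.28 for Adgf-A, a difference that was not tested. Adgf-A had far more reads (1228 and 1574 in Schneider's medium, 2981 and 2827 in KRB). Unspliced reads of the host gene were not counted apart.

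**Figure D5:**
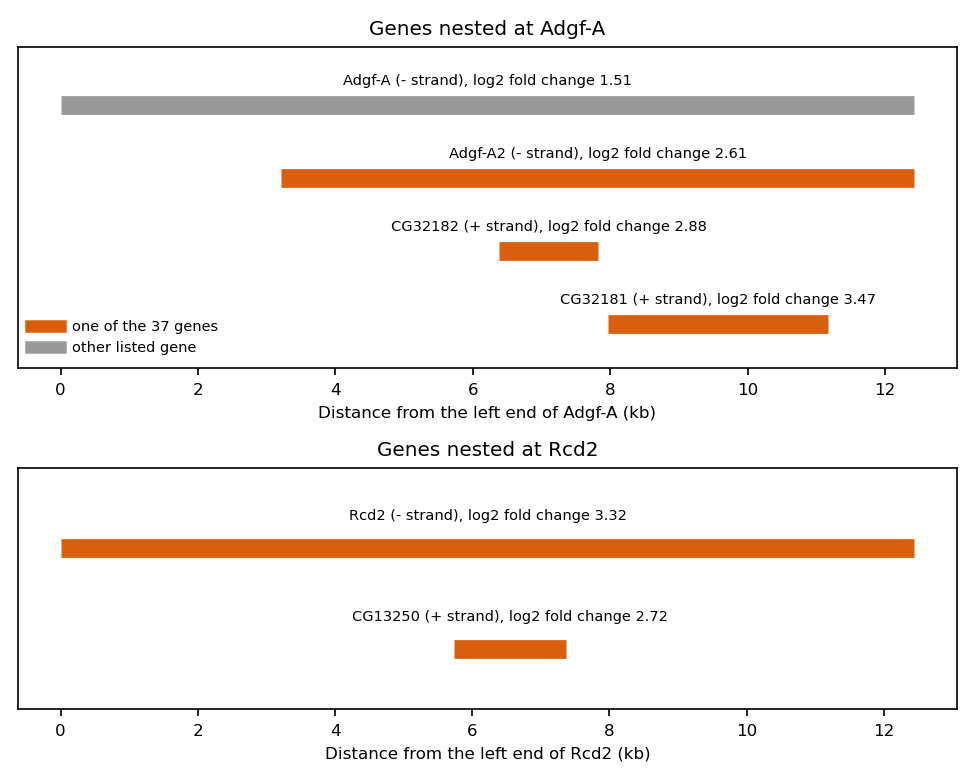
Extent of the genes at Adgf-A (top) and Rcd2 (bottom), in kb from the left end of the host gene, with strand and log2 ratio between media. In orange are genes among the 37 and in grey is the other listed gene, Adgf-A, whose value of 1.51 is below those of the 3 genes nested in it.

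CG13250 lies in an intron of Rcd2 on the other strand, and both are among the 37. CG13250 had 17.1 and 14.9 normalized counts in Schneider's medium against 98.8 and 111 in KRB, with a log2 fold change of 2.72 ± 0.31 against 3.32 for Rcd2. The difference between the 2 genes was not tested. CG8177 and CG42268 are neighbours on opposite strands, 3148 nt apart.

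Beyond the 37, 37 further listed genes lay within 10 kb of one of them. Of the 24 that were tested, 21 (87.5%) were higher and 2 lower in KRB, beside 42.3% and 53.6% of all tested genes. Cyp317a1 and CR45635, both higher, met the count bounds and were left out of the 37 only by name. Some of the higher genes shared a locus, such as CG5399, CR45635 and CR45636 near CG5404. The lower ones were CG31469 near CG34383 (log2 fold change -1.95 ± 0.45) and CG7131 near CG7142 (-1.07 ± 0.37). Among the 17 that overlapped none of the 37 genes, 14 were higher. HHEX, a homeobox gene 63 nt from dmrt93B, had 19 and 6 reads in Schneider's medium against 86 and 115 in KRB. LysX, a lysozyme gene 1014 nt from Aplip1, had 1 and 9 reads in Schneider's medium against 131 and 302 in KRB, and AOX1, an aldehyde oxidase gene 663 nt from CG31296, had 1636 and 3149 against 4138 and 6536. These genes were named after their values were seen. Of 145 protein-coding genes within 10 kb of the 37, 116 are not among the listed genes, so most neighbours are not analysed here.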

How the data were processed

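Read mapping by the authors used STAR 2.4.0.1 and the Dm6 build, followed by counting over transcripts; use of strand in counting is not given in the sources used here. They deposited raw counts per gene symbol and library. Their deposited log2 fold change and p-value of each gene, from edgeR 3.24.3, were not used.

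The 37 genes and the gene lists were chosen with earlier results of these data known. The test was edgeR 4.0.16 (R 4.3.3) with filterByExpr, TMM and medium alone in the design, and p-values were adjusted over 1756 tested genes (Benjamini-Hochberg). The standard error is the log2 fold change divided by the square root of F. The p-values weigh the difference between media against the spread between 2 biological replicates of each medium. For each gene that spread is drawn toward the spread of all tested genes. Alternatives were DESeq2 1.42.0, other scalings, filters and bounds, a replicate block and each library left out; removal of genes with replicates over 3-fold apart was chosen after seeing the data. With 1 library left in a medium, its spread was assumed to be that of the other. Replicate ratios used a pseudocount of 0.5. The fit was run on simulated counts in which most genes were left unchanged. The listed genes are unlike that, so the simulation does not bear on the scaling. Coordinates are those of the BDGP6 Ensembl annotation (Dm6 coordinates), which matched all 37 genes. Named with values were the 12 largest folds, the 10 highest means, members of the lists and up to 3 most counted genes a list; other genes were chosen after their values were seen. Promoter motifs were not analysed here. Python 3.11.15, pandas 2.3.3 and matplotlib 3.10.9 drew the figures.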

Additional observations from a re-analysis of the deposited data

How the results depend on the processing

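The number of genes depended on the rule. A raw read ratio of at least 3 gave 79 genes and one of at least 6 gave 13, at least 20 reads in each Schneider's library gave 26, and a bound of 4 in every pair of libraries on normalized counts gave 43. With normalized in place of raw reads in the ratio it was 85, because the Schneider's libraries together had the larger effective size. For the 37 genes the median log2 fold change was 3.56 with DESeq2, 3.58 with relative log expression factors and 1.87 with total counts, beyond the spread between replicates, and 2.69 to 3.29 under the other settings. With each library left out in turn it ranged from 2.45 to 3.20, and 34 to 37 genes were called higher. With total counts 33 were called (not fon, CG42268, E23 and Pu), and the libraries of fon and E23 then overlapped between media. Without the genes that overlap another annotated gene 13 of 13 were called, because fewer genes were counted. With no filter on low counts, or one on a mean count of 10, 36 were called (not E23). A replicate block gave 37 calls and a median of 2.89. The correlation of deviations between libraries of the same number was 0.284, which with 2 pairs does not make them paired. No single gene changed direction in 148 values with 1 library left out or 296 values under the other settings. The bound on the read ratio favoured this outcome in advance, so nothing is read from it. The standard error exceeded 0.5 for 5 of the 37 genes, fon, E23, CG42268, upd2 and Pu. The unlisted genes that would fix the scaling are not analysed here.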
